A study of Mus musculus with 12 samples.

Results

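The genes described here are 35 genes of the lysosome and of autophagy, taken by symbol. The rule that takes their rows uses no measured value, but the genes were chosen with earlier results of these data known. The table lists 55573 genes in all, and 33 of the 35 were among the 13836 that passed the filter on low counts. RNA-sequencing was done on tumourspheres, which are cells grown in suspension as spheres, of 3 mouse spindloid (spindle-shaped, mesenchymal) mammary tumour cell lines named A1005, A1129 and A1471. Each line came from an independent tumour, and all lines carry the MMTV-Metmt;Trp53fl/+;Cre genotype, in which the MMTV promoter drives the Met transgene in mammary epithelium and Cre deletes the floxed allele of Trp53. The paper states that the cells' own Met locus becomes amplified in this model. The spheres received DMSO (the vehicle), Crizotinib, which inhibits the Met kinase, PD173074, which inhibits FGF receptor kinases, or both drugs for 24 h, at 1 µM each, and every treatment had 1 library of each line (n = 3 lines). The question was what inhibition of Met, of FGF receptors or of both does to gene expression in these cells. The vehicle controls therefore carry the same transgene and the same Trp53 allele as the treated cells. The paper describes retained expression of the transgene, an oncogenic Met, for non-spindloid lines. Whether these spindloid lines express it was not examined here.

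Lysosomes are acidic organelles in which proteases, glycosidases and lipases degrade material delivered by endocytosis and by autophagy, the process in which a double membrane closes around cytoplasmic material and fuses with the lysosome. The enzymes need the proton pump of the lysosomal membrane, and the amino acids, sugars and lipids that they release leave through exporters. Many of these genes share a short promoter word, the E-box within the CLEAR element, which is bound by the MiT/TFE transcription factors Tfeb and Tfe3. The kinase mTORC1 holds these factors in the cytoplasm when nutrients and growth factors are plentiful.

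The promoter word is shown first because it is the sequence feature for which this gene group is known. Promoter windows of RefSeq on GRCm38.p6, 250 bases before to 50 bases after the start, were found by symbol for 30 of the 35 genes. The word CACGTG, which reads the same on both strands, was in the window of 9 of the 30 genes (30.0%) and in 8.09% of all 27025 genes with a window. The longer word TCACGTGA, which contains the first, was in 4 of the 30 (13.3%) and in 1.12% of all genes, and the same word with G before it and C after it was in 0 of the 30 and in 0.37% of all genes. The 27025 genes were not limited to those that passed the filter on low counts, so they are a different kind of set from the 30. The windows of Lamp1, Mcoln1, Ctsa, Ctsd, Glb1 and Gla are shown in part, 5′ to 3′ on the strand of the gene, with each CACGTG in capitals, because they hold the word alone, in the longer form or more than once. Their positions are chr8:13159086-13159160 (+ strand), chr8:3500445-3500482 (+ strand), chr2:164833743-164833772 (+ strand), chr7:142387906-142387935 (- strand), chr9:114401003-114401052 (+ strand) and chrX:134601186-134601245 (- strand), in that order.
Lamp1: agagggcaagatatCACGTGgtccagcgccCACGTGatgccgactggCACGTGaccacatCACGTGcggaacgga
Mcoln1: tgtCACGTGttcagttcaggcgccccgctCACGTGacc
Ctsa: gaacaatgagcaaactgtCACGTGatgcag
Ctsd: gcccgcgtctCACGTGacccgttgagggcc
Glb1: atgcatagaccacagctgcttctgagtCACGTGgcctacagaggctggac
Gla: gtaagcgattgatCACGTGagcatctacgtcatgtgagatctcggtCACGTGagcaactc
Lamp1 held 4 copies of CACGTG within 61 bases of its start. The other genes with the word were Ctsf, Ctsl and Gaa. Such matches describe these letters in these windows and were not tested for binding.

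The 35 genes took 0.65% to 0.752% of all counts in the DMSO libraries, 0.688% to 0.769% with Crizotinib, 0.714% to 0.841% with PD173074 and 1.33% to 1.5% with the combination. With PD173074 the share was 0.839%, 0.714% and 0.841% for A1005, A1129 and A1471, and with the combination 1.35%, 1.5% and 1.33% in the same order. The share of the combination libraries lay above that of all other libraries, and A1129 went from the lowest share with PD173074 to the highest with the combination.

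**Figure D1:**
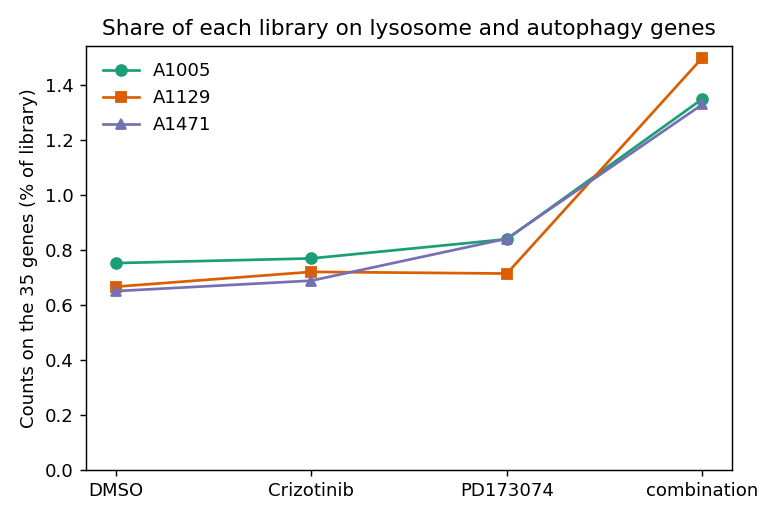
Share of each library's counts that fell on the 35 genes, in percent, for the 3 cell lines in each treatment, with lines joining the libraries of 1 cell line. The combination libraries sit between 1.33% and 1.5%, and the other libraries between 0.65% and 0.841%.

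Total counts were 13031492 to 17750476 per library. Mitochondrial genes took 1.21% to 1.29% of counts with DMSO, 1.44% to 1.48% with Crizotinib, 1.53% to 1.66% with PD173074 and 1.93% to 2.52% with the combination, a share that moved with the lysosome genes and whose part in the results was not tested. Mesenchymal markers summed to 3340 to 9750 CPM (counts scaled to the normalized library size), with Vim at 1900 to 3200 CPM and Fn1 at 377 to 5090 CPM. Cdh2 did not exceed 0.453 CPM, Snai2 2.41 CPM, and Col1a1 ranged from 0 to 759 CPM. The mesenchymal markers did not move together. From DMSO to the combination, mean Twist1 went from 113 to 53.2 CPM and mean Sparc from 391 to 1400 CPM. Mean Zeb1 went from 65.3 to 77.9 CPM and mean Zeb2 from 41.2 to 59 CPM. Epithelial markers summed to 7.54 to 53.4 CPM, and 4 of the 9 passed the filter on low counts. Krt8 was at 1.12 to 34 CPM and Krt18 at 4 to 49.4 CPM, whereas Krt5 and Cldn7 had 3 counts or fewer in every library. These markers describe the libraries and do not test the labelled breast tissue. Macrophages are rich in lysosomal enzymes. Of 12 macrophage markers, Tyrobp, Laptm5, Lyz2 and C1qa had 0 counts in every library and Adgre1 and Itgam had at most 3. The list summed to 4.67 to 32.1 CPM with DMSO, 5.22 to 34.2 with Crizotinib, 5.51 to 40.3 with PD173074 and 12 to 56 with the combination, with Cd68, which is itself a lysosomal membrane protein, at 4.21 to 17.7 CPM with DMSO and 8.22 to 24.4 CPM with the combination. Of the other markers, Cd74 was at 0 to 0.207 CPM with DMSO, 0.0716 to 4.71 CPM with PD173074 and 0.564 to 12.6 CPM with the combination, and Ptprc at 0.132 to 13.6 CPM with DMSO and 0 to 17.5 CPM with the combination. Cd74 moved with the lysosome genes, and the part of these markers in the results was not tested. Endothelial markers summed to 0.345 to 0.859 CPM with DMSO and 1.13 to 3.09 CPM with the combination, and T cell markers did not exceed 1.01 CPM. In these bulk libraries, a change in the share of cells of a kind and a change in RNA per cell cannot be told apart.

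Treatment with both inhibitors raised 17 of the 33 tested genes against DMSO and lowered 0 (edgeR quasi-likelihood test, unpaired, adjusted p under 0.05 over all 13836 genes), where 6.1% of all genes tested were called higher and 8.28% lower. The median log2 fold change was 1.2 over the 33 genes and 0.02 over all genes tested, with medians by line of 0.76 (A1005), 1.28 (A1129) and 1.18 (A1471). The genes included enzymes of sugar and lipid breakdown, membrane proteins, the peptidases Ctsa and Tpp1, and autophagy genes, whereas the transcription factors Tfeb and Tfe3 were not called. With the cell line as a block, a fit that removes differences between the lines shared by all treatments, 29 of the 33 were called higher and 0 lower, where 28.6% of all genes were called higher and 26.2% lower, and DESeq2 called 22 higher (9.92% of the genes it tested). In 28 of the 33 genes the combination library was above the DMSO library in all 3 lines, against 34.3% of all genes, and in 22 genes every combination library lay above every DMSO library, against 13.8% of all genes. The number called by the unpaired fit was 18 without A1005, 5 without A1129 and 0 without A1471, and with the block it was 29, 27 and 26. In the count without A1005 under the block, 1 of the 29 was a fall, in Gusb. The share of all genes called with a line left out is not given here or below. The counts with a line left out therefore do not show whether the 33 genes depend on a line more than other genes do.

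**Figure D2:**
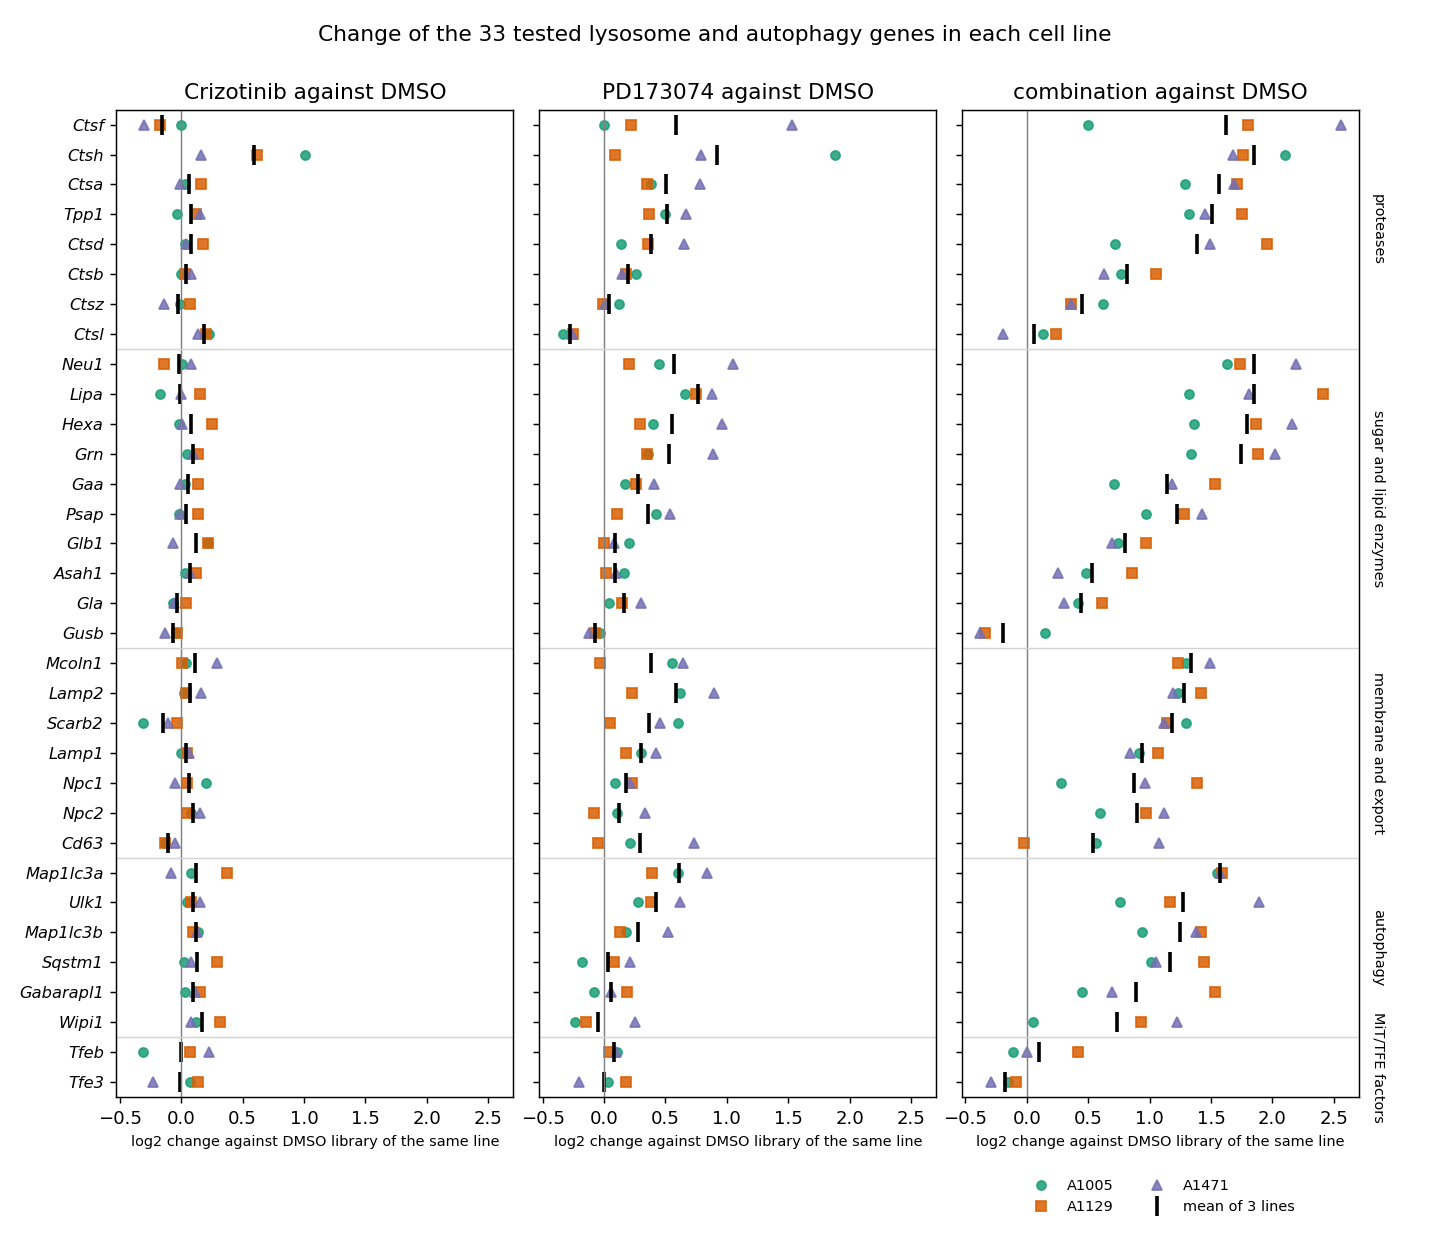
Log2 change of the 33 tested genes against the DMSO library of the same cell line, for Crizotinib, PD173074 and the combination, grouped by role from proteases at the top to the MiT/TFE factors. Symbols are the 3 cell lines and black bars their mean, and in the combination panel most genes sit to the right of 0 in every line while Ctsl, Gusb, Tfeb and Tfe3 sit near 0.

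The first role is that of the lysosomal enzymes of sugars and lipids, with their activators. Of 10 genes, 6 rose unpaired and 9 were called higher with the block (median log2 change 1.21). Hexa, the alpha subunit of beta-hexosaminidase, which trims gangliosides (chr9:59539540-59565109, + strand, mm10), measured 84.9, 63.1 and 60.8 CPM with DMSO in A1005, A1129 and A1471, the order in which sets of 3 values are given. It measured 83.8, 74.9 and 61.3 CPM with Crizotinib, 112, 77.1 and 118 CPM with PD173074, and 219, 231 and 273 CPM with the combination. All combination libraries of Hexa lay above all others, and the log2 fold change against DMSO was 1.79 (SE 0.21, adjusted p = 0.000919, edgeR).

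Lipa, the lysosomal acid lipase that frees cholesterol from its esters (chr19:34492318-34527474, - strand), stood at 63.6, 39.9 and 52.6 CPM with DMSO, at 56.6, 44.3 and 52.6 CPM with Crizotinib, at 101, 67.1 and 96.8 CPM with PD173074 and at 159, 213 and 185 CPM with the combination. The PD173074 libraries lay between the DMSO and the combination libraries without overlap, and the combination was 3.57-fold above DMSO (log2 1.84, SE 0.22, adjusted p = 0.000967, edgeR). Neu1, the lysosomal sialidase (chr17:34931253-34935953, + strand), stood at 20.3, 30.5 and 18.2 CPM with DMSO, 20.5, 27.6 and 19.2 CPM with Crizotinib, 27.8, 34.9 and 37.9 CPM with PD173074 and 62.9, 102 and 83.4 CPM with the combination. Its PD173074 range overlapped that of DMSO, whereas its combination range did not (3.6-fold, log2 1.85, SE 0.27, adjusted p = 0.00212, edgeR).

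Grn encodes progranulin, which is cut into granulins in the lysosome, and Psap encodes prosaposin, the precursor of the activator proteins of sphingolipid breakdown. Grn measured 522, 330 and 338 CPM with DMSO, 539, 364 and 362 CPM with Crizotinib, 669, 420 and 626 CPM with PD173074 and 1330, 1210 and 1370 CPM with the combination. The 3 lines were closer together with the combination than with DMSO, and Grn rose by 1.71 on the log2 scale (SE 0.26, adjusted p = 0.00267, edgeR). Psap went from 788, 464 and 530 CPM with DMSO to 1550, 1130 and 1430 CPM with the combination (log2 1.2, SE 0.31, adjusted p = 0.0298, edgeR). Glb1, the lysosomal beta-galactosidase, went from 46.4, 34.5 and 40.1 CPM to 77.4, 67.6 and 64.7 CPM (log2 0.79, SE 0.2, adjusted p = 0.0302, edgeR), the smallest change among the 17 genes called unpaired.

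Of the other enzymes in this group, 3 were called only with the block. Gaa, the acid glucosidase that degrades glycogen, had a log2 fold change of 1.22 (SE 0.4, adjusted p = 0.0707 unpaired and 0.000147 with the block, edgeR), with per-line changes of 0.71 in A1005, 1.53 in A1129 and 1.18 in A1471. Asah1, acid ceramidase, was at 0.56 (adjusted p = 0.133 and 0.00418) and Gla, alpha-galactosidase, at 0.44 (adjusted p = 0.117 and 0.00452). Gusb, beta-glucuronidase, was the exception, with 64.5, 90.8 and 141 CPM with DMSO and 71.5, 71.8 and 108 CPM with the combination. It was higher in A1005 and lower in A1129 and A1471, with a log2 fold change of -0.24 (SE 0.37, adjusted p = 0.739 unpaired and 0.189 with the block).

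Among the 10 cathepsins and other lysosomal proteases, 8 were tested, 2 rose unpaired and 7 were called higher with the block (median log2 change 1.44). Ctsa, a carboxypeptidase that also shields Neu1 and Glb1 from degradation, measured 205, 230 and 135 CPM with DMSO, 210, 258 and 134 CPM with Crizotinib, 267, 293 and 232 CPM with PD173074 and 501, 752 and 437 CPM with the combination. Each combination library exceeded every library of the other treatments, and the change was 2.96-fold (log2 1.57, SE 0.3, adjusted p = 0.00825, edgeR). Tpp1, a tripeptidyl peptidase, went from 84.1, 108 and 64.5 CPM with DMSO to 211, 364 and 177 CPM with the combination (log2 1.55, SE 0.31, adjusted p = 0.0103, edgeR).

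The aspartyl protease Ctsd measured 506, 277 and 215 CPM with DMSO and 836, 1070 and 607 CPM with the combination, so the groups did not overlap. Its log2 fold change of 1.33 (SE 0.41) missed the threshold unpaired (adjusted p = 0.0553) and passed it with the block (adjusted p = 0.000331), in a gene that ranged widely between the lines before treatment. Ctsb, a cysteine protease, went from 713, 482 and 824 CPM to 1220, 998 and 1280 CPM (log2 0.79, adjusted p = 0.0923 unpaired and 0.000173 with the block). Ctsz changed by 0.46 on the log2 scale (adjusted p = 0.174 and 0.00203).

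Ctsl, a cysteine protease that ranked high among the lysosomal genes before treatment, followed another pattern. It measured 1210, 1060 and 1140 CPM with DMSO, 1420, 1220 and 1250 CPM with Crizotinib, 966, 894 and 950 CPM with PD173074 and 1330, 1250 and 1000 CPM with the combination. Its Crizotinib libraries all lay above and its PD173074 libraries all below those of DMSO, but the log2 differences were small (0.19, SE 0.14, and -0.28, SE 0.14) and neither passed the test (adjusted p = 1 for both unpaired, 1 and 0.237 with the block). The combination did not differ from DMSO by more than the spread (log2 0.07, SE 0.14, adjusted p = 0.811).

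The remaining proteases were restricted to some lines or barely detected. Ctsh had 10.7 and 10.9 CPM with DMSO in A1129 and A1471 and 36.3 and 35.3 CPM with the combination, against 0 and 0.445 CPM in A1005. Ctsf had 3.29 CPM with DMSO and 11.8 CPM with the combination in A1129, and at most 1.89 CPM in any library of the other 2 lines. Both passed the filter on low counts through the lines in which they were present, and both were called with the block only (adjusted p = 0.00065 for Ctsh and 0.00149 for Ctsf, against 0.618 and 0.629 unpaired). Ctsk, the collagen-degrading cathepsin of osteoclasts, and Ctss, a cathepsin of antigen-presenting cells, did not pass the filter, with at most 0.834 CPM and 0.198 CPM in any library.

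All 7 genes of the lysosomal membrane and of lipid export were called higher with the block, and 5 rose unpaired (median log2 change 0.96). Lamp2, a membrane glycoprotein that serves as a receptor in chaperone-mediated autophagy, measured 278, 357 and 314 CPM with DMSO, 282, 367 and 350 CPM with Crizotinib, 427, 418 and 588 CPM with PD173074 and 652, 956 and 719 CPM with the combination. The order DMSO, PD173074, combination held without overlap, and the combination was 2.45-fold above DMSO (log2 1.29, SE 0.21, adjusted p = 0.00357, edgeR). Lamp1, the other abundant glycoprotein of this membrane, went from 507, 799 and 658 CPM to 954, 1680 and 1180 CPM (log2 0.96, SE 0.28, adjusted p = 0.0451, edgeR).

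Mcoln1, the calcium channel of the lysosomal membrane, was present at 19, 37.6 and 20.5 CPM with DMSO and at 47.1, 88.2 and 57.8 CPM with the combination (log2 1.32, SE 0.35, adjusted p = 0.0328, edgeR). Scarb2, the receptor that carries beta-glucocerebrosidase to the lysosome, went from 59, 43.1 and 50.6 CPM to 146, 95 and 110 CPM (log2 1.2, SE 0.25, adjusted p = 0.0131, edgeR). Both changed by similar amounts in the 3 lines, with per-line log2 changes of 1.23 to 1.49 for Mcoln1 and 1.12 to 1.3 for Scarb2.

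The cholesterol exporter Npc1 differed more between lines. It went from 61, 61.6 and 76.4 CPM with DMSO to 74.2, 162 and 149 CPM with the combination, with log2 changes of 0.28, 1.39 and 0.96 for these lines, so the combination library of A1005 overlapped the DMSO range (log2 0.95 in the fit, SE 0.26, adjusted p = 0.038, edgeR). Its soluble partner Npc2 was called with the block only (log2 0.87, adjusted p = 0.155 unpaired and 0.000193 with the block). The tetraspanin Cd63 likewise (log2 0.54, adjusted p = 0.117 and 0.0288) changed by 0.56 in A1005 and 1.08 in A1471 but by -0.02 in A1129.

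Of the 6 autophagy genes, 4 rose unpaired and all 6 were called higher with the block (median log2 change 1.2). Map1lc3b, whose protein LC3B is attached to the membrane of the autophagosome, measured 119, 118 and 93.2 CPM with DMSO, 130, 127 and 102 CPM with Crizotinib, 134, 130 and 134 CPM with PD173074 and 228, 317 and 242 CPM with the combination. The PD173074 libraries lay above the DMSO libraries by a small margin and the combination libraries far above them (2.38-fold, log2 1.25, SE 0.17, adjusted p = 0.00158, edgeR). Its relative Map1lc3a rose from 32.4, 48.3 and 23.4 CPM to 95.3, 145 and 69.9 CPM (log2 1.58, SE 0.42, adjusted p = 0.0349, edgeR), with changes of 1.55, 1.59 and 1.57 in the 3 lines.

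Sqstm1, the cargo receptor p62, measured 541, 340 and 374 CPM with DMSO, 547, 417 and 397 CPM with Crizotinib, 478, 360 and 433 CPM with PD173074 and 1090, 926 and 776 CPM with the combination. The libraries of each single inhibitor overlapped those of DMSO, and the combination was 2.22-fold above DMSO (log2 1.15, SE 0.23, adjusted p = 0.00898, edgeR). Ulk1, the kinase that starts autophagy, went from 34.8, 55.4 and 45 CPM to 59, 125 and 167 CPM (log2 1.38, SE 0.37, adjusted p = 0.0367, edgeR). Gabarapl1, a relative of LC3, and Wipi1, which binds phosphoinositides on the forming membrane, were called with the block only (log2 0.84 and 0.66, adjusted p = 0.0919 and 0.249 unpaired, 0.00184 and 0.0101 with the block). The change of Wipi1 was 0.05 in A1005 and 0.93 and 1.22 in the others.

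The transcripts of the transcription factors did not follow the other genes. Tfeb measured 19.2, 16 and 8.15 CPM with DMSO and 17.7, 21.6 and 8.15 CPM with the combination (log2 0.13, SE 0.46, adjusted p = 0.899 unpaired and 0.569 with the block). Tfe3 measured 81.1, 108 and 112 CPM with DMSO and 73.3, 101 and 91.5 CPM with the combination (log2 -0.18, SE 0.21, adjusted p = 0.636 and 0.125). The differences between the lines in Tfeb were larger than those between treatments. RNA levels do not report where these proteins are in the cell.

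**Figure D3:**
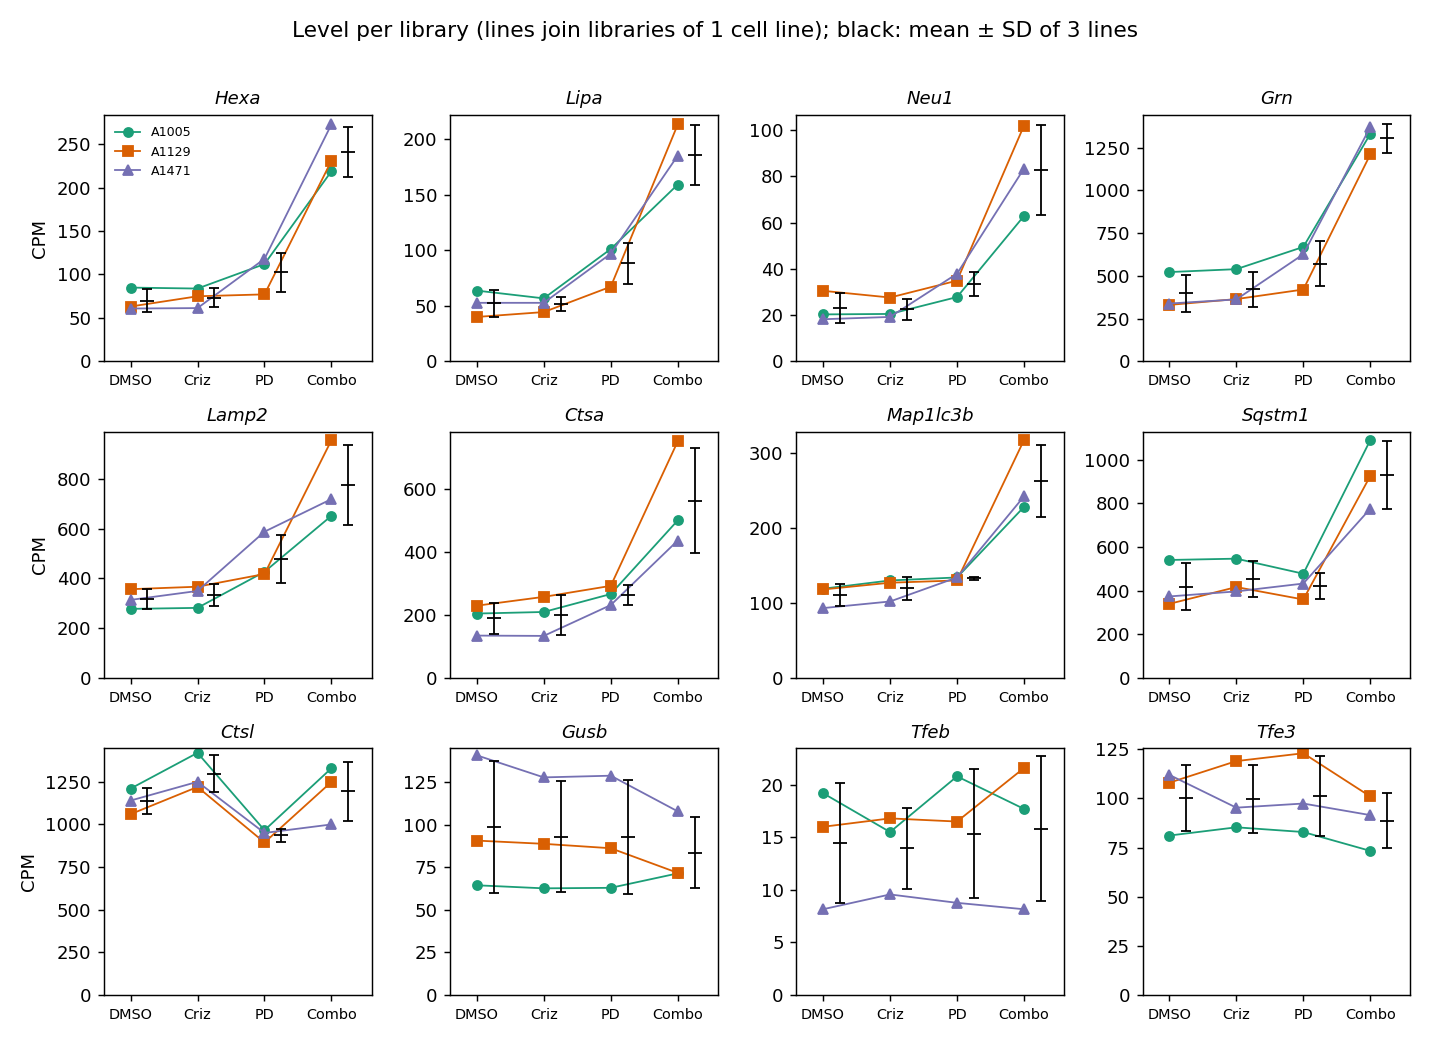
Level of 12 of the genes in each library, in CPM, with DMSO, Crizotinib (Criz), PD173074 (PD) and the combination (Combo); coloured lines join the libraries of 1 cell line and black marks are the mean ± SD of the 3 lines. Hexa, Lipa, Neu1, Grn, Lamp2, Ctsa, Map1lc3b and Sqstm1 are highest with the combination in every line, and Ctsl, Gusb, Tfeb and Tfe3 are not highest with it in every line.

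PD173074 alone called 0 of the 33 genes against DMSO unpaired, as it did 0% of all genes tested (edgeR), and 0 with the block, where 1.62% of all genes were called higher and 0.52% lower. DESeq2 called 0 as well (0.174% of all genes higher). Without adjustment, p was under 0.05 in 3 of the 33 genes unpaired and in 15 with the block, against 2.22% and 15.7% of all genes. The median log2 fold change was 0.3, against 0 over all genes, and 0.2, 0.18 and 0.46 in A1005, A1129 and A1471. In 22 of the 33 genes the PD173074 library exceeded the DMSO library in all 3 lines (24.1% of all genes). Ctsa, Lamp2, Lipa and Map1lc3b were the 4 genes whose PD173074 libraries all lay above the DMSO libraries (3.35% of all genes), and Ctsl was the 1 gene below them (3.07% of all genes).

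The largest differences with PD173074 alone were in Lipa (log2 0.76, SE 0.22, adjusted p = 1 unpaired and 0.0592 with the block, edgeR) and Lamp2 (0.6, SE 0.2, adjusted p = 1 and 0.0652). Tpp1 was at 0.49 (adjusted p = 0.0509 with the block) and Map1lc3a at 0.57 (0.0524). When A1129 was left out of the block fit, Lamp2 was called. The median change was largest in A1471 (0.46) and close in A1005 (0.2) and A1129 (0.18). Hexa and Neu1 changed by 0.29 and 0.2 in A1129, against 0.96 and 1.05 in A1471.

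Crizotinib alone called 0 of the 33 genes (0% of all genes, edgeR) with and without the block and with DESeq2, and 0 genes had an unadjusted p under 0.05 in either fit (0.13% of all genes unpaired and 1.86% with the block). The median log2 fold change was 0.08, and 14 of the 33 genes were higher in all 3 lines (17.9% of all genes). Fold changes ranged from -0.2 to 0.42 on the log2 scale, with the line-restricted Ctsf and Ctsh at the ends. Ctsl, described above, was the 1 gene whose Crizotinib libraries all lay above those of DMSO (0.838% of all genes), and 0 genes had all of them below (0.853%).

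Against each single inhibitor the combination was again higher. Against Crizotinib, 14 genes rose and 0 fell (5.4% of all genes called higher and 7.78% lower, edgeR unpaired), and the median log2 change was 1.13. With the block 29 were called higher (27.4% of all genes) and 0 lower (26%), and by DESeq2 21 (9.65%). The 14 were Ctsa, Lamp2, Npc1, Hexa, Neu1, Psap, Scarb2, Mcoln1, Tpp1, Lipa, Grn, Sqstm1, Map1lc3b and Ulk1, led by Neu1 (log2 1.88, SE 0.27, adjusted p = 0.00194) and Lipa (1.86, SE 0.22, adjusted p = 0.000982). The number was 16 without A1005, 5 without A1129 and 0 without A1471, with no share over all genes given for these fits. This comparison and that with DMSO share the combination libraries.

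Against PD173074, 6 genes rose and 0 fell, where 0.838% of all genes were called higher and 3.93% lower (edgeR unpaired), and the median log2 fold change was 0.81. They were Hexa (log2 1.23, SE 0.21, adjusted p = 0.00943), Neu1 (1.3, SE 0.26, adjusted p = 0.0199), Lipa (1.08, SE 0.22, adjusted p = 0.0214), Grn (1.19, SE 0.25, adjusted p = 0.0267), Sqstm1 (1.13, SE 0.23, adjusted p = 0.0191) and Map1lc3b (0.98, SE 0.17, adjusted p = 0.0096). By DESeq2 12 were called higher (3.92%). With the block, 28 were called higher (19.6% of all genes) and 0 lower (20.2%), and Ctsl was among them (log2 0.34, adjusted p = 0.0279) while Gla (0.28, adjusted p = 0.0542) and Cd63 (0.26, adjusted p = 0.289) were not. The unpaired number was 7 without A1005 and 0 without A1129 or without A1471, again with no share over all genes given. In 21 genes the combination libraries all lay above those of PD173074 (8.97% of all genes).

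The departure from additivity is the log2 change with the combination less the sum of the changes with each inhibitor. Its median over the 33 genes was 0.8, against 0.03 over all genes, with 0.51, 1.04 and 0.72 for A1005, A1129 and A1471, and it was positive in all 3 lines in 27 genes (29% of all genes). Unpaired, 0 genes passed (0.00723% of all genes higher and 0.911% lower, edgeR), with 9 at an unadjusted p under 0.05 against 9.03% of all genes, and DESeq2 called 4 where it called 0.413% of all genes higher (Hexa, Neu1, Lipa and Map1lc3b). With the block 19 passed, all positive, where 5.46% of all genes were called higher and 10.7% lower, led by Neu1 (log2 1.3, SE 0.22, adjusted p = 0.00437), Hexa (1.17, SE 0.24, adjusted p = 0.0134) and Lipa and Grn (both 1.12). Leaving a line out of the block fit gave 15 without A1005, 3 without A1129 (Scarb2, Tpp1 and Sqstm1) and 2 without A1471 (Neu1 and Sqstm1). No share over all genes is given for these fits. Sqstm1 was above additivity by 1 on the log2 scale (SE 0.17, adjusted p = 0.00388 with the block and 0.277 unpaired), and its changes with PD173074 and Crizotinib alone were 0.02 and 0.12.

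Levels were also set per kilobase of exon, with every annotated exon base of a gene counted once. The length of the transcripts present was not measured, so the order of the genes depends on the annotation. Ctsd and Ctsl have 34.4% and 32.9% of these bases in another annotated gene. With DMSO, Lamp1 (245 CPM per kb), Psap (216), Ctsl (175), Ctsd (142) and Sqstm1 (125) stood highest and, of the genes tested, Tfeb (2.55), Ctsh (1.6) and Ctsf (0.231) lowest. With the combination the order was Psap (498), Lamp1 (475), Grn (375), Ctsd (357) and Sqstm1 (277), with Ctsl at 184. Grn moved from rank 7 to rank 3 and Hexa, at 34.9 CPM per kb with DMSO and 121 with the combination, from rank 15 to rank 10.

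Other genes of the same pathway were counted for the combination against DMSO, where 6.1% of all genes tested were called higher unpaired, and 28.6% higher and 26.2% lower with the block. Of 17 tested subunits of the V-ATPase, the proton pump that acidifies the lysosome, 9 rose unpaired, 0 fell and 14 were called higher with the block (median log2 0.77). Atp6v1d went from 43.9 ± 4.08 to 96.5 ± 18.7 CPM (SD, n = 3; log2 1.14, SE 0.17, adjusted p = 0.00229, edgeR), and Atp6v0b (1.04) and Atp6v0e (0.78) also rose. Both the cytosolic part of the pump, to which Atp6v1d belongs, and its membrane part thus had called members.

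Of 28 other lysosomal hydrolases and their activators, 11 rose unpaired, 0 fell and 24 were higher with the block (median log2 1.15). Gm2a, the activator that presents ganglioside to Hexa, went from 22.4 ± 2.78 to 99.8 ± 25.7 CPM (SD, n = 3; log2 2.16, SE 0.26, adjusted p = 0.000919, edgeR). With the block 1 gene of the list, Ppt2, was lower (log2 -0.39, adjusted p = 0.63 unpaired and 0.0452 with the block), named after its value was seen.

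Of 18 other lysosomal membrane proteins, 16 were tested, 8 rose unpaired, 0 fell and 15 were higher with the block (median log2 0.89), and the untested genes were Mcoln2 and Mcoln3. The cystine exporter Ctns went from 14.2 ± 3.16 to 82.4 ± 47.3 CPM (SD, n = 3; log2 2.54, SE 0.49, adjusted p = 0.00876, edgeR), with changes of 1.52, 3.13 and 2.36 in A1005, A1129 and A1471. The amino acid exporter Slc36a1 (1.29) and the chloride-proton exchanger Clcn7 (1.06) rose as well. The mannose 6-phosphate tag and its receptors sort enzymes to the lysosome. Of 6 genes of this tag, its receptors and the sorting receptor Sort1, 1 rose unpaired (Nagpa, 0.71, adjusted p = 0.0351) and 4 were higher with the block (median 0.53). Sort1 was at 1.51 (adjusted p = 0.74 unpaired and 7.49e-05 with the block, edgeR). The tag receptors M6pr (log2 -0.13) and Igf2r (-0.11) were called in neither fit. Sort1, M6pr and Igf2r were named after their values were seen. Gnptg was at 0.81 and Gnptab at 0.36, called with the block only (adjusted p = 0.000328 and 0.00654).

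Autophagy genes outside the chosen set were counted as well. Of 33 other autophagy genes, 5 rose unpaired, 0 fell and 16 were higher and 1 lower with the block (median log2 0.39), the lower one being Bnip3, a receptor for mitochondria (log2 -0.63, adjusted p = 0.00476 with the block, named after its value was seen). Gabarap, a relative of LC3, went from 145 ± 23.6 to 374 ± 19.4 CPM (SD, n = 3; log2 1.37, SE 0.19, adjusted p = 0.00184, edgeR), and Atg14 (1.61) and Pik3r4 (0.84), both subunits of the lipid kinase complex of autophagy, rose too. A list of 20 genes covered the mTORC1, Rag, Ragulator and folliculin machinery that controls Tfe3 and Tfeb. It also held the mTORC1 inhibitors Tsc1 and Tsc2 and the Tfeb relatives Mitf and Tfec. Of the 20, 5 rose unpaired (6.1% of all genes tested). With the block 12 were higher (28.6% of all genes) and 2 lower (26.2%), and the median was 0.36. Mtor itself rose by 1.07 (SE 0.16, adjusted p = 0.00234, edgeR), Flcn by 1.1 and Lamtor4 by 0.93. The mTORC1 genes Rptor (log2 -0.2) and Mlst8 (0.07), named after their values were seen, were called in neither fit. The 2 lower with the block were Mitf, a transcription factor of the Tfeb family (log2 -0.71, adjusted p = 0.00408 with the block and 0.0822 unpaired), and Rheb, the GTPase that activates mTORC1 (log2 -0.38, adjusted p = 0.0112 and 0.162), both named after their values were seen.

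Of the 3 cystatins tested, inhibitors of cysteine cathepsins, 1 rose unpaired and all 3 were higher with the block (median log2 1.25). Cst3, the secreted cystatin C, went from 197 ± 79.8 to 689 ± 102 CPM (SD, n = 3; log2 1.8, SE 0.37, adjusted p = 0.0119, edgeR), and Cstb was at 0.69 (adjusted p = 0.391 unpaired and 0.000575 with the block). With PD173074 alone, 0 genes of these 7 lists were called unpaired, and 3 of their 123 tested genes (2.44%) were higher with the block, against 1.62% of all genes, namely Gm2a (log2 0.89), Ids (0.55) and Mtor (0.49) (adjusted p = 0.0495, 0.0271 and 0.0413).

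**Figure D4:**
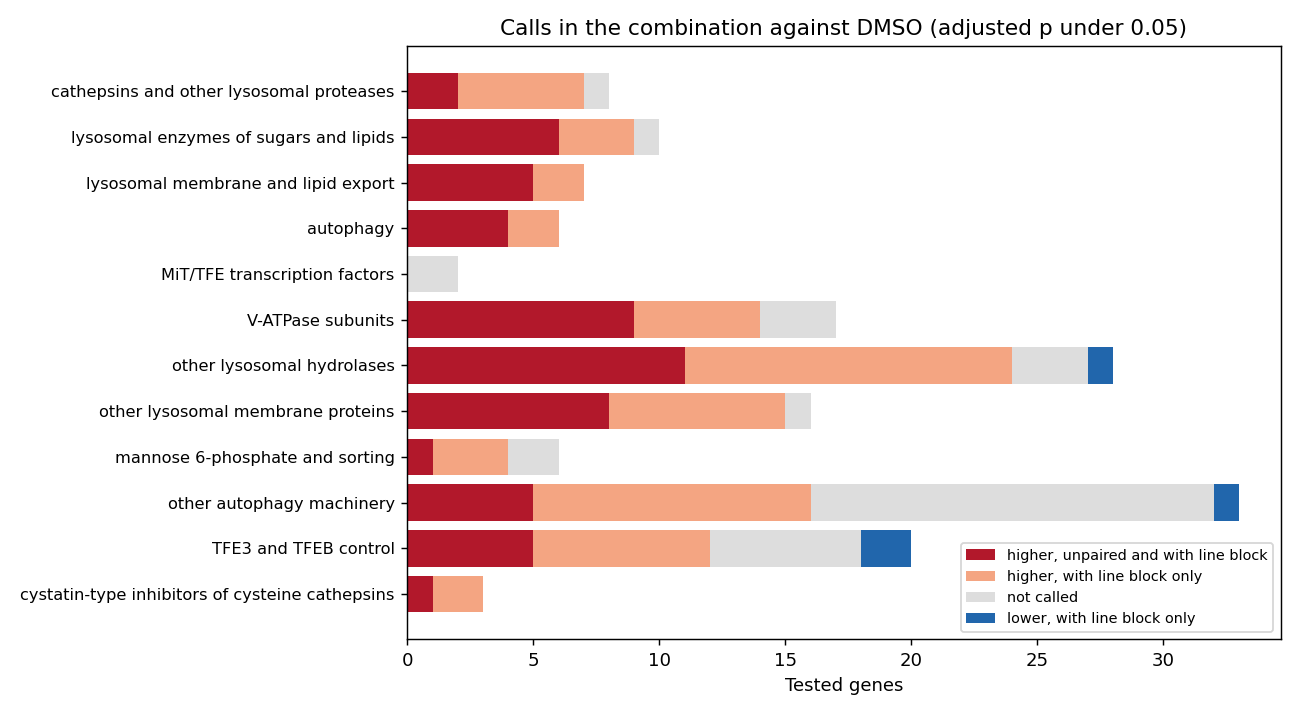
Number of tested genes in each list that were called in the combination against DMSO (adjusted p under 0.05, edgeR), for the 5 roles of the 33 genes and the 7 lists of other pathway genes. Dark red marks genes higher in both fits, light red genes higher with the cell line block only, blue genes lower with the block only and grey genes not called; the 2 MiT/TFE factors are grey and all 7 genes of the lysosomal membrane are red.

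The word CACGTG was in the promoter window of 4 of the 15 genes with a window that were called in the combination unpaired and of 5 of the 15 others, and with the block it was in 8 of the 24 called and in 1 of the 6 others. In both fits the others include Ctsk and Ctss, which had too few counts to be tested and so could not be called. The exons of 13 of the 35 genes overlap another annotated gene, and the overlap covers over 20% of exon bases in Ctsd (34.4%), Ctsl (32.9%) and Gabarapl1 (28.3%), whose values are uncertain for that reason.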

How the data were processed

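RNA from 12 libraries, 4 treatments of 3 cell lines, was sequenced on a NextSeq500 instrument. The authors deposited raw counts, whole numbers of reads per gene. The submitters' processing notes name bcl2fastq, STAR, HTSeq and build mm10, and strand setting and annotation release are not given in the sources used here. Groups came from the labels. Low counts were removed by filterByExpr (at least 10 counts, and 15 in total), libraries were scaled by TMM, and genes were tested by the edgeR 4.0.16 quasi-likelihood test in R 4.3.3, in 1 unpaired fit over all libraries, as the study's methods state an unpaired analysis, with Benjamini-Hochberg adjustment over 13836 genes and a threshold of 0.05. Tests are two-sided, and unpaired p-values are measured against the spread between the 3 lines within a treatment. With the block they are measured against the spread left after differences between lines shared by all treatments are removed.

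The same-numbered libraries are the same cell line, and over 18 pairs their deviations from the treatment means correlated at 0.766 or more (mean 0.871, against -0.422 between lines), so the cell line was also fitted as a block. None of the 66 pairs of libraries was identical (lowest chi-square per degree of freedom 4.53). Levels are TMM-normalized CPM, and per-line changes are differences of log2 CPM with a prior count of 2. Alternatives were the block, DESeq2 1.42.0, its size factors, other filters, only the groups compared, a log2 fold change of at least 1.5, and each line left out. Exon lengths, positions and overlaps came from the GENCODE annotation of mm10. The tests were also run on simulated counts in which line effects were the same in every treatment. Such counts cannot show how the block fit behaves when lines respond differently.

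The genes and lists were chosen with earlier results of these data known. All 35 genes were followed, and other pathway genes were named by the smallest p in the combination, up to 3 per list among genes averaging 3 or more on the log2 CPM scale. Some genes that this rule names are not reported here. A further set of markers for macrophage, endothelial, T, epithelial and mesenchymal cells served to describe the libraries. Reads carry no molecular identifiers, so they are not independent molecules. Tables and plots were made in Python 3.11.15 (pandas 2.3.3; numpy 2.4.6, matplotlib version 3.10.9).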

Additional observations from a re-analysis of the deposited data

Results flagged for a closer look

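For 19 of the 33 tested genes, the effect of PD173074 with Crizotinib present differed from its effect without Crizotinib, by the interaction term of the edgeR fit with the cell line as a block. In all 19 it was larger with Crizotinib, where 5.46% of all genes tested were called higher and 10.7% lower. The differences on the log2 scale were 0.99 for Ctsa, 0.59 for Ctsb, 0.96 for Ctsd, 0.43 for Ctsz, 0.6 for Lamp1, 0.69 for Npc2, 0.82 for Gaa, 0.58 for Glb1, 1.17 for Hexa and 1.3 for Neu1. They were 0.83 for Psap, 0.95 for Scarb2, 0.84 for Mcoln1, 0.92 for Tpp1, 1.12 for Lipa, 1.12 for Grn, 1 for Sqstm1, 0.82 for Map1lc3a and 0.85 for Map1lc3b. Adjusted p-values ran from 0.00388 (Sqstm1) to 0.0478 (Ctsd) with the block and from 0.136 (Hexa) to 0.884 (Npc2) unpaired, where 0 passed. In the block fit without A1129 the number called was 3, and without A1471 it was 2, with no share over all genes given.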

How the results depend on the processing

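With 3 lines per treatment, the counts of calls depended on how differences between lines were treated, while the median log2 fold changes moved by less than the spread between lines (1.02 to 1.26 for the combination against DMSO). Against DMSO, the combination had 17 genes called, 29 with the cell line block, 8 with only the groups compared, 7 at a log2 fold change of at least 1.5, and 0 to 18 with each line left out; the block without A1005, A1129 or A1471, chosen after seeing the data, gave 29, 27 and 26. Against Crizotinib these were 14, 29, 7, 4, 0 to 16, and 28, 27 and 25. Against PD173074 they were 6, 28, 0, 0, 0 to 7, and 27, 20 and 25, with 12 by DESeq2. The departure from additivity had 0, 19 with the block, 4 by DESeq2, and 15, 3 and 2 with the block and a line left out. PD173074 had 0, and 1 with the block without A1129 (Lamp2). Of the 17 genes, 17 were shared with DESeq2 and with the block, and without a filter on low counts Lamp1, Npc1, Glb1, Psap and Ulk1 were lost. Over 106 pairs of a gene and a comparison, chosen because they were called unpaired or with the block or had a log2 fold change of at least 1, 927 alternative values kept the direction, of which 715 stayed on the same side of the threshold, 109 newly passed and 103 no longer passed. The cause was not tested. Shares of all genes called are given above only for the unpaired, block and DESeq2 fits over all lines. The counts under the other settings therefore do not show whether these genes gained or lost calls more than other genes did. Ctsk and Ctss had too few counts to be tested.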
